A study of Mus musculus with 2 samples.

Results

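The SMAD genes and the corepressor genes Ski and Skil were examined for chromatin accessibility in TGF-β-treated cardiac fibroblasts with and without Piezo2 knockdown. All peaks that the deposited annotation assigns to Smad1, Smad2, Smad3, Smad4, Smad5, Smad6, Smad7, Smad9, Ski or Skil were taken, which gave 55 of 63316 peaks. All 10 genes had a peak, among 16934 genes with one. ATAC-seq marks open DNA by the insertion of sequencing adapters with the Tn5 transposase, so the reads over a region follow how open it was. The source of both libraries was primary cardiac fibroblasts of the mouse, which had received 5 ng/ml TGF-β over 24 h. Before that, the cells of 1 library were transfected with scrambled siRNA (labelled NC, here SCR) and those of the other with siRNA against the mechanosensitive channel gene Piezo2 (siPiezo2), as the labels and the figure legend give it. Each condition had 1 library, hence no replicate check and no test. The series' design text names a Tet3 knockout with Cre in place of the siRNA, and this was not settled. The methods describe minced tissue and another kit than the labels do, so the labelled cell type rests on the labels and the legend. The study's mouse lines had a C57BL/6 J background, while age and the number of animals were not given for these cells in the sources used here. Knockdown itself is not measured by ATAC-seq.

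TGF-β binds a pair of serine/threonine kinase receptors that phosphorylate the receptor-regulated SMADs, which then join the common mediator Smad4 and enter the nucleus to act on target genes. Smad2 and Smad3 carry the TGF-β signal, while Smad1, Smad5 and Smad9 carry that of bone morphogenetic proteins (BMPs). The inhibitory Smad6 and Smad7 and the corepressors Ski and Skil (SnoN) hold the pathway back, and several of them are themselves induced by it. In cardiac fibroblasts, Smad3 is known for its part in the conversion to myofibroblasts and in scar formation.

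Densities are the authors' normalized reads per kb, and a log2 ratio is log2((siPiezo2 + 1)/(SCR + 1)) of densities. Intervals are 95% exact binomial intervals from the reads recovered in windows of 2000 bp, and they cover counting error only. In all windows together, SCR had 4615335 reads and siPiezo2 2754046, with a median of 58 and 36 per peak. For peaks called in both, the squared log2 ratio between the libraries was in median 2.08 times that of counting error. This value takes in any difference between the conditions. Of the fibroblast markers, 9 of 11 had a peak, each of the 9 with one no more than 1 kb from a transcription start site (TSS). Lum and Thy1 had no peak. Such a TSS peak was found for 1 of 8 cardiomyocyte markers, 1 of 6 endothelial, 0 of 7 macrophage and leukocyte, 2 of 6 mural and 3 of 4 epicardial markers. In bulk libraries a change in the mix of cells and a change within cells cannot be told apart.

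Together, the SMAD genes with Ski and Skil were near the background of the table, with opposite directions in different genes and in different parts of a gene. Of the 55 peaks, 8 (14.5%) were lower past 1.5-fold in siPiezo2, against 14.2% of all peaks. Past the same fold, 2 (3.64%) were higher, against 3.21%. A log2 ratio below 0 was found for 30 peaks (54.5%), against 63.7% of all peaks, and the median was -0.06 against -0.13. Under median-of-ratios scaling, 4 were lower and 3 higher past 1.5-fold, against 8.84% and 6.27% of all peaks.

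Summed over peaks, 6 of the 10 genes had a ratio below 0, where 62.6% of all genes did. Their median was -0.10 against -0.09 over all genes. None passed 1.5-fold in sum, while 6.6% of all genes were lower and 1.54% higher past that fold. The counting interval was entirely below 0 for 3 genes (Smad4, Smad7 and Ski), as for 15.2% of all genes, and entirely above 0 for Smad3, as for 4.37%. From lowest to highest, the log2 ratios ran through Smad4, Smad1, Ski, Smad7, Skil, Smad6, Smad5, Smad2, Smad3 and Smad9. The intervals of all neighbours in this order overlapped, whereas that of Smad3 lay above those of Smad1, Smad4, Smad7 and Ski. These intervals depend on where 0 is set. With median-of-ratios scaling, under which the all-gene median was 0.04, Smad4 (-0.33, -0.67 to 0.01), Smad7 (-0.10, -0.28 to 0.08) and Ski (-0.11, -0.23 to 0.01) no longer had an interval below 0, while Smad3 (0.35, 0.23 to 0.46) and then also Smad9 (0.49, 0.01 to 0.96) were above it. At the same total of densities Smad4 (-0.72 to -0.04) and Ski (-0.29 to -0.04) kept an interval below 0, and for reads at the same total Smad7 (-0.45 to -0.09) and Ski (-0.37 to -0.13) did. Relative to the all-gene median, Smad3 was 0.30 higher in the densities and 0.21 higher in recovered reads at the same total. Smad6 changed sides, from 0.02 in the densities to -0.06 in the reads.

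**Figure D1:**
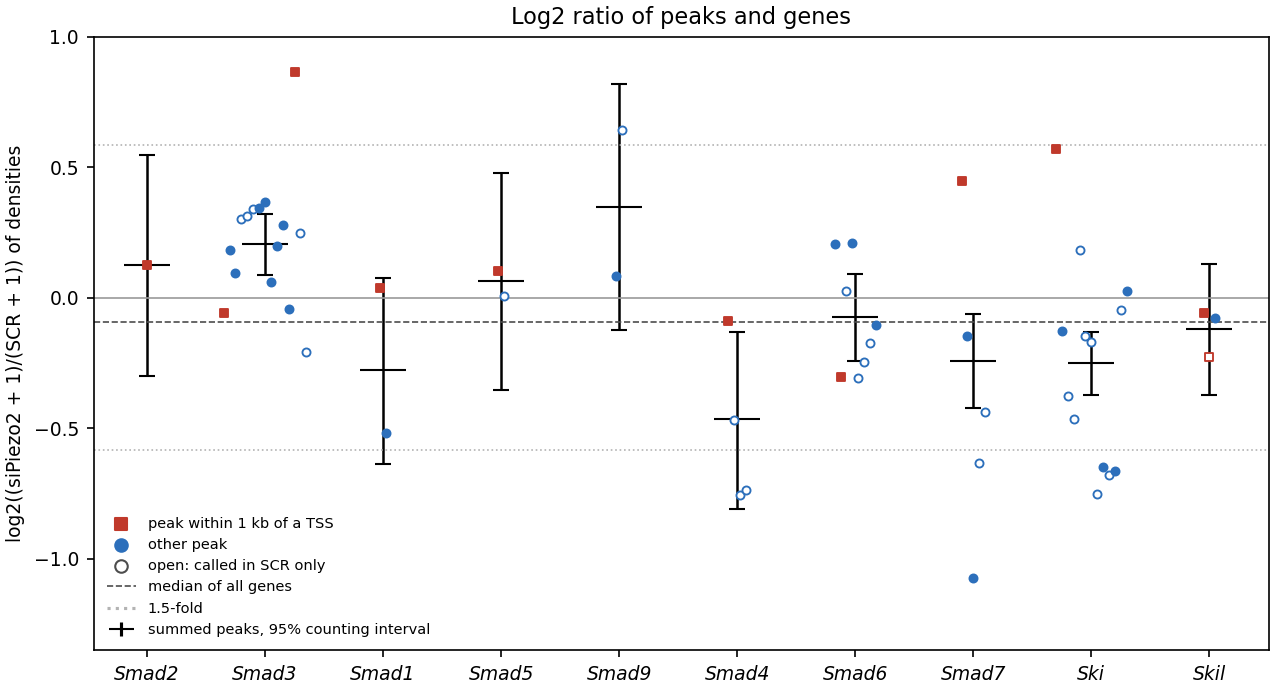
Log2 ratio of siPiezo2 to SCR densities (vertical axis) for each peak of the 10 genes (points, in order along the gene) and for each gene's summed peaks (bars, 95% counting interval), with 1.5-fold dotted and the all-gene median of -0.09 dashed. The points of Smad3 lay mostly above 0 and those of Smad4 below it in the authors' densities, while Smad7 and Ski each had a TSS peak above 0 and most other peaks below.

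The sequence around the TSS is shown for Smad6, whose start carries a rare SMAD palindrome, for its neighbour Smad3, which also has a peak across the TSS, and for Smad9, which has none within 1 kb. The sequences are those of RefSeq on GRCm38.p6, 5′ to 3′ on the gene's strand, with 250 bases before the TSS and 30 from it on. The peak table uses GRCm39 coordinates, so the windows were tied to it through the Ensembl transcript that starts at the same base. Capitals mark the palindrome GTCTAGAC, which holds a SMAD-binding site on each strand.
Smad6 (chr9:64022030-64022309, minus strand): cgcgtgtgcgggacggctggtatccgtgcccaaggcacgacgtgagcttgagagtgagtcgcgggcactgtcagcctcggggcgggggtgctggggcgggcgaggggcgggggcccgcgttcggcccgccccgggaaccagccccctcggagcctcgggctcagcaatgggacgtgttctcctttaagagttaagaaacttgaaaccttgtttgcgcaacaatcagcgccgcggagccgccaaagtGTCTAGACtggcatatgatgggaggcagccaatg
Smad3 (chr9:63757965-63758244, minus strand): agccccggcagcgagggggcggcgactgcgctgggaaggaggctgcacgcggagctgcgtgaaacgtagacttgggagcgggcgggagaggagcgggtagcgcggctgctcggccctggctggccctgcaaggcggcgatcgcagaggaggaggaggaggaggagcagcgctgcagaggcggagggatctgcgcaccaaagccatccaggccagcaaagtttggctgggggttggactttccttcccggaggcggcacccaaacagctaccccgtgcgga
Smad9 (chr3:54755332-54755611, plus strand): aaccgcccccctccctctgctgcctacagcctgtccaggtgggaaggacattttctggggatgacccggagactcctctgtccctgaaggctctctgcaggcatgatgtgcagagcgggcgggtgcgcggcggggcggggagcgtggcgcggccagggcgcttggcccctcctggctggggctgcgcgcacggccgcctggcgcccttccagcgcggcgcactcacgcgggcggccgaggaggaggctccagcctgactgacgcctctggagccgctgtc

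The palindrome GTCTAGAC began 4 bases before the Smad6 TSS and ran across it. It was found on either strand in 70 of 32851 RefSeq promoter windows of 300 bases (0.213%), and in that of no other member with an entry (Smad1, Smad3, Smad5, Smad9 and Ski). The shorter SMAD site CAGAC was in 49.6% of all windows, in that of 1 Smad5 start, and in none of the Smad6, Smad3 and Smad9 windows. The GC-rich SMAD site GGCGCC was in 11.9% of all windows and began 51 bases before the TSS of Smad9. It was also in the windows of Ski and of some Smad5 starts, and in none of those of Smad1, Smad3 and Smad6. Neither the AP-1 motif TGANTCA (7.81% of windows) nor the TEAD motif GGAATG (14.7%) was in the windows of Smad6, Smad3 or Smad9. The Sp/KLF motif GGGCGG (35.7% of windows) was in all of these, with 4 matches in Smad6, 2 in Smad3 and 5 in Smad9, the last of which lies beyond the printed bases. These matches describe the letters of the windows and say nothing of what was bound.

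Among the SMADs that carry the TGF-β signal, Smad3 had a higher summed density in siPiezo2, with the ratio of most of its peaks above 0. Its 15 peaks, a number reached by 1.42% of genes with a peak, summed to a density of 570 in SCR and 658 in siPiezo2, from 1441 and 1018 reads. The log2 ratio was 0.21 (0.09 to 0.32), higher than in 84.6% of genes, and it was 0.20 (0.07 to 0.33) over the 13 peaks whose windows do not overlap. Of these 15 peaks, 12 had a ratio above 0. Of the 11 peaks in intron 1, 10 were above 0, and the ratios of the 11 ran from -0.04 to 0.37. The counting interval of each of the 11 included 0, so none was beyond counting error alone.

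The main Smad3 TSS peak (chr9:63665154-63665642) was close to even, at 54.7 in SCR and 52.5 in siPiezo2 (log2 ratio -0.06, -0.47 to 0.35). By the mean of both libraries, the strongest peak of Smad3 lay in intron 1 (chr9:63584932-63585237) at 60.9 and 74.1 (0.28, -0.08 to 0.64). A peak with an overlapping window (chr9:63585389-63585817) was close to it, at 62.7 in SCR and 72.1 in siPiezo2. The highest ratio was at a peak 90.7 kb downstream of the gene start (chr9:63574418-63574711), just before the TSS of an internal transcript. Its density was 21.2 in SCR and 39.3 in siPiezo2, from 51 and 63 reads, which gave 0.86 (0.31 to 1.43), above 99.1% of all peaks. This was the one peak of the TGF-β receptor-regulated SMADs past 1.5-fold. Smad2 had a single peak, at its TSS (chr18:76374224-76375001), with 47.7 in SCR and 52.2 in siPiezo2 (0.13, -0.30 to 0.55), within counting error.

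The BMP-regulated SMADs had 6 peaks in all, and none of the 3 genes had a summed ratio whose interval excluded 0 in the authors' densities. Smad1 had 78.2 in SCR and 64.4 in siPiezo2 (-0.28, -0.64 to 0.08). Its TSS peak in the 5′ UTR (chr8:80125834-80126299) was at 30.7 and 31.5 (0.04, -0.51 to 0.57). Its strongest peak, in intron 4 (chr8:80076838-80077232), fell short of 1.5-fold, at 47.5 and 32.8 (-0.52, -1.02 to -0.03). Smad5 was close to even, with 50.1 and 52.4 in sum (0.06, -0.35 to 0.48) and 29.9 and 32.2 (0.10, -0.44 to 0.64) at its strongest peak (chr13:56851773-56852129), which was also its TSS peak.

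Smad9, the least accessible of the 10 genes in sum, had 35.3 in SCR and 45.2 in siPiezo2 (0.35, -0.12 to 0.82). Its interval was above 0 with median-of-ratios scaling (0.01 to 0.96), trimmed mean scaling (0.02 to 0.96) and reads at the same total (0.11 to 1.06), and it included 0 at the same total of densities (-0.04 to 0.91). The peak nearest to its start lay 9.01 kb downstream in intron 1 (chr3:54671825-54672209) at 20.9 and 22.2 (0.08, -0.58 to 0.73). Its exonic peak (chr3:54704690-54704894) was past 1.5-fold at 14.4 and 23.0, but with 33 and 38 reads the interval of 0.64 reached from -0.07 to 1.36. This peak was called in SCR only and was denser in siPiezo2.

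Smad4, which all receptor-regulated SMADs share, had a ratio below 0 at each of its 4 peaks in the authors' densities, and at 3 of 4 with median-of-ratios scaling, where its TSS peak was at 0.05. In sum it had 94.9 in SCR and 68.4 in siPiezo2, from 223 and 110 reads, with a log2 ratio of -0.47 (-0.81 to -0.13), and 11.7% of genes were lower. The lowest ratios were in the introns. The TSS peak (chr18:73836729-73837417), the strongest of the gene, was at 33.1 and 31.0 (-0.09, -0.63 to 0.44). A peak in intron 10 (chr18:73779578-73779897) was at 27.6 and 16.1 (-0.74, -1.45 to -0.06), and one in intron 4 (chr18:73799254-73799677) at 21.4 and 12.3 (-0.75, -1.58 to 0.02). Both were past 1.5-fold but held only 26 and 20 reads in siPiezo2. Over peaks called in both libraries the sum of Smad4 is the TSS peak alone, at -0.09. All 3 intronic peaks of Smad4 were called only in SCR, the library with more reads in the windows.

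**Figure D2:**
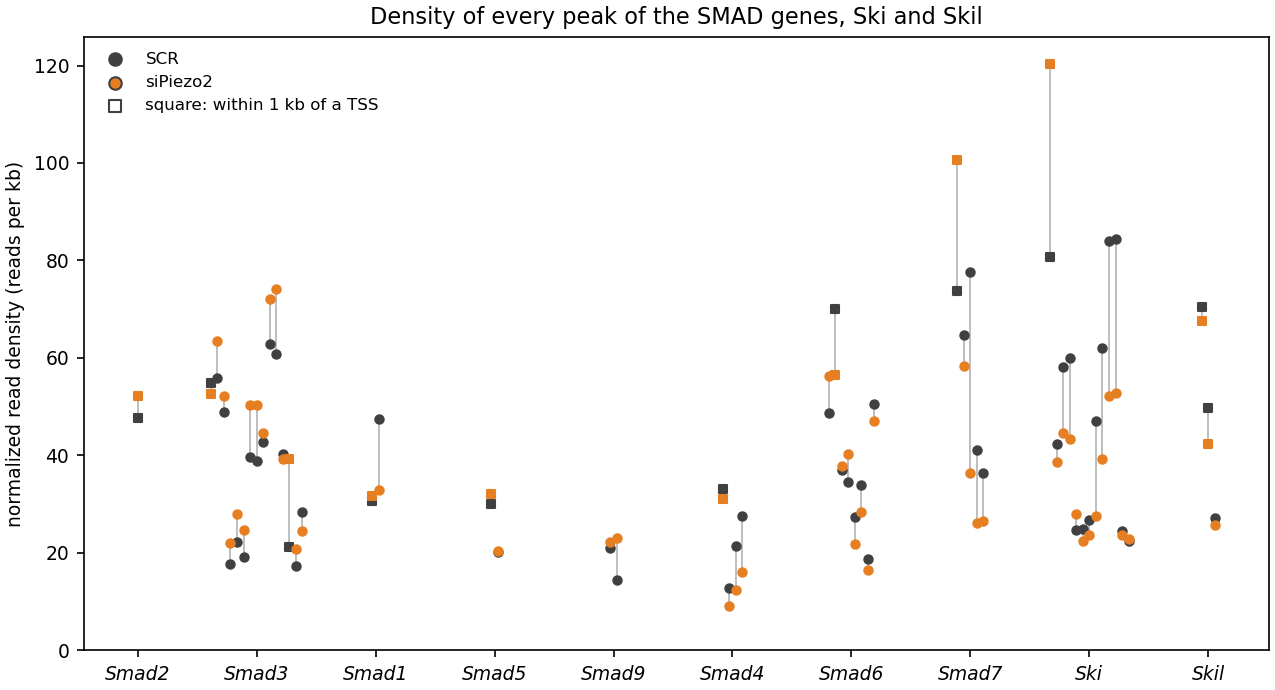
Normalized read density (reads per kb, vertical axis) of each of the 55 peaks in SCR (dark) and siPiezo2 (orange), joined by a line, with squares for peaks within 1 kb of a TSS. The TSS peaks of Ski and Smad7 rise to 120 and 101 in siPiezo2, the highest densities shown for that library, while the strong intronic peaks of both genes drop.

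The inhibitory SMADs, which block receptor-regulated SMADs in a feedback loop, differed in pattern. Smad7 had 293 in SCR and 248 in siPiezo2 in sum (-0.24, -0.42 to -0.06). This sum joined opposite directions. Its TSS peak (chr18:75500279-75500694) was at 73.6 in SCR and 101 in siPiezo2, from 198 and 148 reads (0.45, 0.13 to 0.76). In intron 3, a peak 18.8 kb downstream of the start (chr18:75519183-75519611) was at 77.6 and 36.3, from 200 and 55 reads. Its log2 ratio of -1.08 (-1.53 to -0.64) was the lowest among the 55 peaks, and 1.94% of all peaks were lower. A neighbouring peak (chr18:75520469-75520675) was at 41.0 and 26.1 (-0.63, -1.19 to -0.10), and the windows of this pair share reads. The window of the TSS peak overlaps that of the Gm20544 promoter, whose ratio was 0.38. Without overlapping windows, which leaves out the TSS peak, the sum of Smad7 was at -0.56 (-0.81 to -0.31).

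Smad6, on chromosome 9 next to Smad3 with 195 kb between the genes, had a lower summed ratio than its neighbour, but their counting intervals overlapped. It had 321 in SCR and 304 in siPiezo2 over 8 peaks (-0.07, -0.24 to 0.09), of which 5 were below 0. Its strongest peak was the TSS peak (chr9:63929167-63929578), which spans the palindrome printed above. The density there was 70.0 in SCR and 56.6 in siPiezo2 (-0.30, -0.69 to 0.08). A second promoter peak, with its summit at -1004 bp from the TSS (chr9:63930134-63930557), has a window that shares reads with it and went the other way, at 48.7 and 56.3 (0.21, -0.21 to 0.61). The interval of the TSS peak lay below that of the Smad7 TSS peak without overlap.

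Ski, which recruits histone deacetylase complexes to SMADs, had 642 in SCR, the highest sum of the 10 genes in that library, and 539 in siPiezo2, below Smad3, over 13 peaks. The log2 ratio was -0.25 (-0.37 to -0.13), and over the 9 peaks without overlapping windows it was -0.12 (-0.27 to 0.02), so the interval then included 0. As in Smad7, the TSS peak and the intron went apart. The TSS peak (chr4:155307486-155308034) was the strongest by the mean of both libraries, at 80.8 in SCR and 120 in siPiezo2, from 220 and 175 reads. Its log2 ratio of 0.57 (0.27 to 0.86), just under 1.5-fold, was above 96.5% of all peaks. With median-of-ratios scaling this peak was past that fold, at 0.71.

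In intron 2 of Ski, 4 peaks within 6.12 kb were lower past 1.5-fold. With median-of-ratios scaling 1 of the 4 was past that fold, and 2 of them were called in SCR only. The first pair (chr4:155257899-155258332 and chr4:155258637-155259224) was at 84.3 and 84.0 in SCR and at 52.9 and 52.2 in siPiezo2, with ratios of -0.66 (-1.05 to -0.29) and -0.68 (-1.07 to -0.30). The second pair was at 62.1 and 39.3 (chr4:155262764-155263199; -0.65, -1.10 to -0.21) and at 47.1 and 27.6 (chr4:155263714-155264021; -0.75, -1.29 to -0.24). Windows overlap within each pair, so these are closer to 2 measurements than to 4. Skil, the close relative of Ski, showed no such cluster. Its 3 peaks summed to 147 and 135 (-0.12, -0.37 to 0.13), and its TSS peak (chr3:31148685-31149318), also its strongest, was at 70.5 and 67.6 (-0.06, -0.42 to 0.30).

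**Figure D3:**
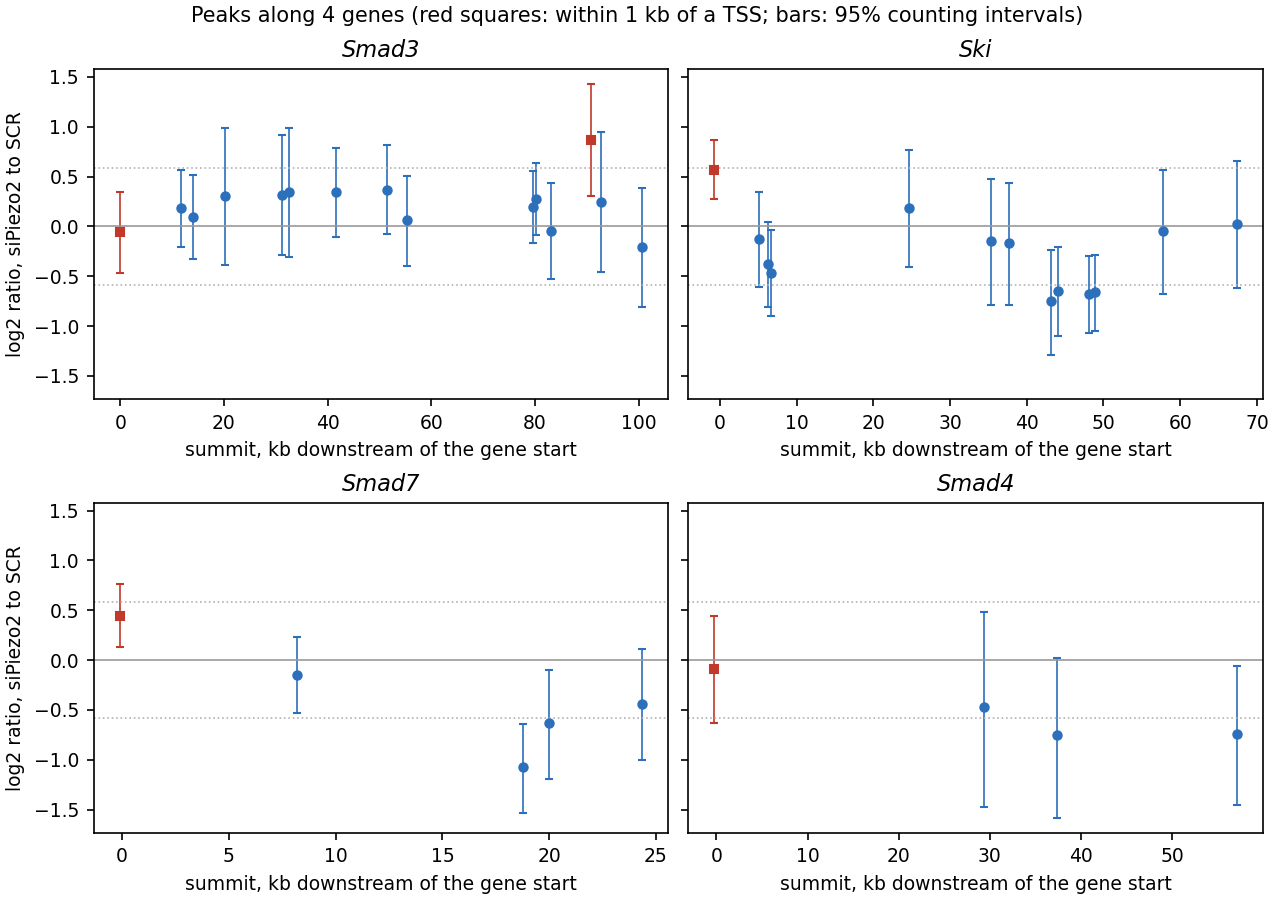
Log2 ratio of siPiezo2 to SCR (vertical axis) against the distance of the summit from the gene start in kb (horizontal axis) for each peak of Smad3, Ski, Smad7 and Smad4, with 95% counting intervals. Ski and Smad7 start above 0 and fall past 1.5-fold (dotted) in the authors' densities at 43.1 to 48.9 kb and at 18.8 and 20.0 kb, whereas the peaks of Smad3 stay close to or above 0 over 100.6 kb.

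The contrast between TSS and other peaks was therefore taken for each gene with both, as the log2 ratio of the peaks within 1 kb of a TSS minus that of the remaining peaks. This comparison was chosen after the values were seen, and it is a description. In Smad7 the TSS peak was at 0.45 and the other 4 peaks, at 220 in SCR and 147 in siPiezo2, at -0.57, a difference of 1.02 (0.63 to 1.41). In Ski the TSS peak was at 0.57 and the other 12 peaks, at 561 and 419, at -0.42, a difference of 0.99 (0.66 to 1.31). Among 5449 genes with both kinds of peak, 98.0% had a smaller difference than Smad7 and 97.7% than Ski. The median of these genes was 0.12, with quartiles at -0.15 and 0.40. Of the other peaks, 8 of 12 in Ski and 2 of 4 in Smad7 were called in SCR only, and over all peaks the median was -0.23 for those called in SCR only and 0.00 for those called in both. With peaks called in both libraries alone, the difference was 1.03 (0.60 to 1.46) in Smad7 and 1.03 (0.65 to 1.40) in Ski, against a median of 0.08 over 1744 genes.

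The other members were less far from the rest or had wide intervals. Smad4 was at 0.62 (-0.09 to 1.33) and Smad1 at 0.56 (-0.19 to 1.30). Smad5 was at 0.09 (-0.79 to 0.98), Smad3 at 0.08 (-0.27 to 0.42) and Skil at -0.05 (-0.71 to 0.62). In Smad3, 2 peaks counted as TSS peaks, the main one (-0.06) and that of the internal transcript (0.86). Its value rests partly on the latter. Smad6 was at -0.29 (-0.72 to 0.14) with its 1 peak within 1 kb, and at 0.00 (-0.35 to 0.35) when peaks within 2 kb were taken, which adds the peak at -1004 bp. Either interval lay below those of Smad7 and Ski, whose values were the same with both distances. A difference above 0 was found in 6 of these 8 genes, Smad3 among them with its internal TSS peak included, against 61.8% of all genes with both. The authors' normalization raises the ratio of denser peaks relative to thinner ones, and from the recovered reads without it the differences were 0.88 in Smad7 and 0.80 in Ski.

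**Figure D4:**
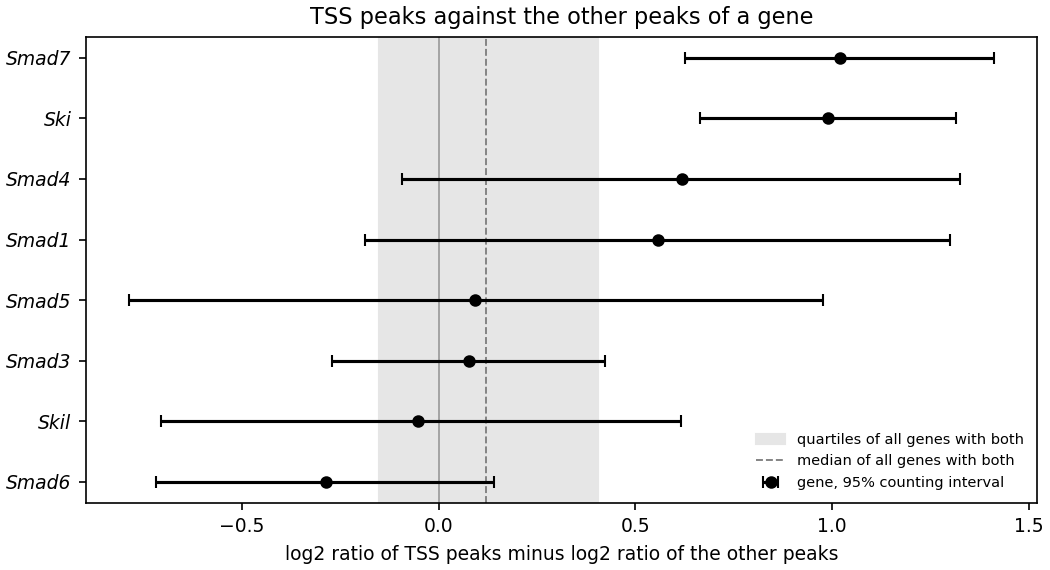
Difference between the log2 ratio of peaks within 1 kb of a TSS and that of a gene's other peaks (horizontal axis, points with 95% counting intervals) for the 8 members with both, beside the median (0.12, dashed) and quartiles (shaded) of 5449 genes. Smad7 (1.02) and Ski (0.99) lie furthest right, with intervals clear of the shaded range.

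Over classes of peak, the 8 promoter peaks of the table's 1 kb class were evenly divided, with 4 above 0, against 46.3% of all such peaks, and a median of 0.03 against -0.03. The 43 intronic peaks had a median of -0.13, against -0.17 over all intronic peaks. Of the 55 peaks, 30 were called in both libraries, 25 (45.5%) in SCR only, against 64.0% of all peaks, and 0 in siPiezo2 only. Smad3 weighed on these counts: without it, 27 of 40 peaks (67.5%) were below 0, against 63.7% of all peaks. Of the same 40 peaks, 8 were lower past 1.5-fold, against 14.2% of all peaks.

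The other genes of the pathway were described from 5 lists, in which 83 of 89 genes had a peak. Of the receptors and coreceptors, 13 of 14 had one, 11 were below 0 and the median was -0.28, where 62.6% of all genes with a peak were below 0 and the median was -0.09. The interval was below 0 for 5 and above 0 for 1, against 15.2% and 4.37% of all genes. These shares of all genes also apply to the lists that follow. Genes are named from those at or above the median summed density of all genes. Bmpr1b (183 in SCR and 118 in siPiezo2, -0.62) and Acvr1 (259 and 192, -0.43), both type I receptors, were lowest, and the TGF-β type I receptor Tgfbr1 was highest (113 and 138; 0.29, 0.03 to 0.55), ahead of the coreceptor Tgfbr3 (258 and 287; 0.16, -0.02 to 0.33). Bmpr1b was the 1 receptor past 1.5-fold, where 6.6% of all genes were.

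Genes for SMAD turnover and anchoring had a median of -0.05, with 13 of 20 below 0, the interval below 0 for 6 and above for 0. Axin1 (123 and 83.4, -0.55) and Pmepa1, an inhibitor of TGF-β signalling (363 and 271, -0.42), were lowest. The ubiquitin ligase gene Wwp1 (53.8 and 59.8; 0.15, -0.25 to 0.54) and the phosphatase gene Ppm1a (45.3 and 58.1; 0.35, -0.06 to 0.76) were highest, both within counting error. Nuclear cofactors had a median of -0.04 over 19 of 20 genes, with the interval below 0 for 2 and above 0 for 5. Of these, Sp1 (319 and 459, 0.52) and the Sin3 corepressor gene Sin3a (119 and 152, 0.35) were highest, and the transcription factor genes Yy1 (61.7 and 44.7, -0.45) and Zeb1 (286 and 218, -0.39) lowest.

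Among TGF-β target genes, 25 of 26 had a peak, 19 were below 0 and the median was -0.38. Lower past 1.5-fold were 7, against 6.6% of all genes, with the interval below 0 for 13 and above 0 for 1. Acta2, the smooth muscle actin gene of myofibroblasts, went from 165 in SCR to 43.2 in siPiezo2 (-1.91, -2.31 to -1.53). The cell cycle inhibitor gene Cdkn1a was highest (83.6 and 114; 0.44, 0.15 to 0.74), followed by Bhlhe40 (110 and 123; 0.15, -0.12 to 0.43). Among the BMP targets, 9 of 12 were measured, 5 were below 0 and the median was -0.02. The interval was below 0 for 2 of the 9 and above 0 for 0. Of those at or above the median density of all genes, Id1 (121 and 89.4; -0.43, -0.74 to -0.14) and Smoc2 (210 and 181; -0.22, -0.43 to -0.01) were lowest and Atoh8 (102 and 115; 0.17, -0.11 to 0.45) and Id2 (94.6 and 93.1; -0.02, -0.33 to 0.28) highest. Of the 9 fibroblast markers with a peak, 8 were below 0, with a median of -0.37, and their densities summed to 1203 (SCR) and 1065 (siPiezo2). Col1a1, Col1a2 and Postn are also in the list of TGF-β targets, so the values of these lists are not separate. Mural markers summed to 479 and 397, with 3 of 5 below 0, and Rgs5 (127 and 56.0) made up most of that drop while Cspg4 and Abcc9 were above 0. Endothelial markers summed to 509 and 497, with 3 of 5 below 0, and macrophage and leukocyte markers to 257 and 242, with 3 of 4 below 0. Cardiomyocyte markers summed to 146 and 152, with 1 of 3 below 0 and no peak at Myh6, Tnni3, Ttn, Nppa and Myl7, and epicardial markers to 113 and 108, with 2 of 4 below 0. The part of these in the results was not tested. None of the SMAD genes, Ski or Skil had a summed difference of the size seen at Acta2.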

How the data were processed

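ATAC-seq libraries of 2 groups, with 1 library each, were compared by value only. Per the study's methods, reads were trimmed, aligned with bwa (BWA 0.7.12 in the submitters' processing notes), freed of PCR duplicates with Picard, and peaks were called with MACS2 per library. The authors deposited 1 table whose signal columns are read densities, to which a line fitted through the log2 ratios of the shared peaks, as a function of mean log2 density, had been applied. Its deposited log2 columns (the authors' ratio and mean) and p-value column hold the authors' comparison and were not used. Replicates could not be averaged. Gene coordinates matched GRCm38 for 0 of 10 members and are those of GRCm39, while the notes name mm10.

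Whole reads per window were recovered from the densities for 100% of peaks (within 0.05 reads). Ratios used a pseudocount of 1, and 95% Clopper-Pearson intervals used the reads. Named were, for each member, the TSS peak or the one nearest, the strongest peak and those past 1.5-fold, and, for each list, the 2 lowest and 2 highest genes at or above the median density of all genes, of which 1 is not reported here. Members and lists were chosen with earlier results of these data known, and the TSS contrast after its values were seen. Alternatives were a pseudocount of 0.1, other scalings, a fold of 2, and subsets of peaks. Trimmed mean scaling removed 30% of ratios and 5% of densities at each end. In simulated data with counting error only, drawn separately for each window, reads were recovered for 100% of 63316 peaks. There, 96.0% of the intervals of the reads held the truth. The simulation did not cover reads shared between windows or variation beyond counting error. Software was scipy 1.17.1, pandas 2.3.3 and numpy 2.4.6 under Python 3.11.15, with plots from matplotlib 3.10.9.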

Additional observations from a re-analysis of the deposited data

How the results depend on the processing

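With 1 library per condition, no test was made, and the lower number of siPiezo2 reads in the windows limits single peaks. The choice of scaling moved the summaries most, the cause of which was not tested. The median of the 10 genes (-0.10) was 0.042 under median-of-ratios scaling, -0.0094 at the same total density, 0.045 with trimmed mean scaling, -0.81 from recovered reads without scaling, 0.092 over each gene's strongest peak and 0.13 over promoter peaks only. The median of the peaks (-0.06) was, in the same order of scalings, 0.079, 0.028, 0.082 and -0.64, and it was 0.070 for reads at the same total and 0.048 for peaks called in both libraries. The promoter median (0.03) was 0.17 with median-of-ratios, 0.18 with trimmed mean scaling and -0.65 from unscaled reads. The count of 8 lower peaks was 4 with median-of-ratios and trimmed mean scaling, 5 at the same total of densities or of reads, 36 from unscaled reads, 3 among peaks called in both libraries, 5 without overlapping windows and 1 at a fold of 2. The count of 2 higher peaks was 4 with trimmed mean scaling, 0 from unscaled reads, 1 among peaks called in both libraries, 1 among peaks above the median density and 0 at a fold of 2. Among single genes, Smad3 was at -0.50 from unscaled reads, where the median of all genes was -0.70 and Smad3 0.20 above it, Smad7 at 0.45 and Ski at 0.57 over the strongest or promoter peak. Smad4 was at -0.09 over peaks called in both libraries, over peaks above the median density and at the strongest or promoter peak, and Ski at -0.09 over peaks called in both. Besides the reversals, 98 values for single genes stayed within their intervals and 23 did not, and for single peaks 81 did and 7 did not. The 37 recomputed TSS differences stayed within theirs.

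Smad1, Smad5 and Smad9 had no peak of the promoter class, Smad9 had no TSS peak and Smad2 no other peak, so these gave no such value, and there was no TSS difference for Smad7 without overlapping windows or for Smad4 and Smad5 over peaks called in both libraries. Leaving out distal intergenic peaks removed none, since the table assigns them to no gene. There was no replicate to leave out. No paired analysis was possible because each condition had 1 library. Values in the TSS contrast were recomputed with alternatives chosen after seeing the data.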
